A study of Bos taurus with 8 samples.

Results

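The family of miR-130 and miR-301 was represented by 4 members, bta-miR-130a, bta-miR-130b, bta-miR-301a and bta-miR-454, among the 744 bovine miRNAs of the array. They were picked by their names in the scanner output, after miR-130b had been seen to part widely between the feeding labels in these same data, so that the differences given below for miR-130b are a description of what chose the family and carry no test. Of the 744 miRNAs, 231 were detected on at least 1 array and 143 on all 8, where detected means that the scanner software set its detection flag. miR-130a and miR-130b were detected on all 8 arrays, miR-301a on 6 and miR-454 on 0.

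The samples were plasma exosomes, the small vesicles that cells release into blood, from Japanese Shorthorn steers aged 21 to 28 months that had been raised on grass. The steers were divided at random into 3 kept on pasture (grazing) and 3 kept in a free-stall barn and given cut grass (housed). At 0, 1, 2 and 4 months (mo) the exosomal RNA of the 3 steers of a group was pooled, and each pool was hybridized to 1 array. The 0 mo samples were taken before grazing began. No pool was measured again, so no value has a replicate error, and the error given after a value is the estimate of the scanner software over the spots of that array, not the spread between animals. All 8 arrays lay on 1 slide, and position on the slide cannot be told apart from label and month. Less of a miRNA per vesicle and fewer vesicles that carry it cannot be told apart either.

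miRNAs guide the silencing complex to messenger RNAs through the seed, a short stretch near their 5′ end, and miRNAs with the same seed share many predicted targets. The members of this family have one seed and differ toward the 3′ end. In fat tissue miR-130a and miR-130b are known as repressors of PPARG, the nuclear receptor that drives the differentiation of fat cells, and are counted among the miRNAs that hold adipogenesis back. miR-301a and miR-454 lie within the gene SKA2, and miR-130b forms a cluster with miR-301b, a further miRNA of the family that the array carried.

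The probes are shown because they decide what each signal can hold. Every entry of the family had 2 probes, each on 20 spots, that differed by 1 base at the 3′ end. The longer probe of each entry is given 5′ to 3′, with capitals for the run that ends it. A probe is complementary to its miRNA, so the capitals face the 5′ part of the miRNA, in which the seed lies, and the lower case letters face the part in which the members differ.
miR-130a: atgcccttttaacATTGCA
miR-130b: atgccctttcatcATTGC
miR-301a: atgctttgacaatactATTGC
miR-301b: atgctttgacaatatcATTGC
miR-454: accctataagcaatATTGCA

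Aligned from the 5′ end, the longer probes of miR-130a and miR-130b differed at 2 of 18 bases, an identity of 88.9%, and those of miR-301a and miR-301b at 2 of 21, an identity of 90.5%. The longer probes of miR-130b and miR-301a differed at 9 of 18 bases, and those of miR-301a and miR-454 at 13 of 20. Binding of a probe to the close relative of its miRNA was not tested. A run of ATTG, ATTGC or ATTGCA, written as in the probe strand, ended the longest probe of 7 of the 744 miRNAs (0.941%), namely the 5 entries above, miR-182 and miR-3604. Both of the last were detected on 0 arrays.

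The array design places the longer probe of miR-130b at chr17:74100594-74100610 of UMD_3.1 and that of miR-301b at chr17:74100907-74100926, with 296 bases between them. The longer probe of miR-454 lies at chr19:10339911-10339929 and that of miR-301a at chr19:10349561-10349580, with 9631 bases between them. For these 4 the listed ends run from high to low, whereas those of miR-130a, at chr15:82197769-82197786, run from low to high. In every entry the added base of the longer probe lies at the low coordinate, so no strand is read from the listed order. Each listed span is 1 base shorter than its probe. In the gene order of ARS-UCD2.0, a different assembly whose positions were not used, MIR130B and MIR301B are neighbours, MIR454 and MIR301A lie inside SKA2, and MIR130A lies next to YPEL4 and inside no listed gene.

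The total signal of a miRNA, in scanner units, was divided by the 90th percentile of the 744 miRNAs of the same array, and this ratio is called the scaled signal. In month order, the percentile was 109, 83.2, 50.7 and 82.5 for the housed label and 40.7, 31.2, 56.1 and 34.2 for the grazing label. Detected miRNAs numbered 149 to 226 per array, the median error of a detected signal was 8.81% to 9.86%, and 0 spots were saturated. One further fact bears on every direction below. The sample labels and the G column headings of the study's own table of values name the feeding groups in opposite ways. Of the 22 detected values of the family, 22 lay within 1% of the column matched to their array. The arrays labelled housed matched the columns headed G, which the study's caption gives to grazing cattle. Those labelled grazing matched columns headed A, a letter that the caption gives to no group. They are read as housed only by elimination. The arrays are therefore called by their deposited labels, and each direction between labels is the opposite one if the headings are right. In the study's quantitative PCR, normalized to let-7g, miR-19b was lower in grazing than in housed cattle at 1 and 2 mo. So were miR-148a, miR-221 and miR-361 at 1 mo. In log2 scaled signal the arrays labelled grazing were instead higher, by 0.20 and 0.50 for miR-19b. The others differed by 0.04, 0.40 and 0.16 in that order. No error is given for these differences, and 0.04 is close to no difference. The study's other PCR changes between groups, of miR-150, miR-223, miR-320a, miR-451 and miR-486, were not set beside the arrays here. The naming itself was not tested.

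miR-130b varied more over the arrays than miR-130a. In month order, the signal of bta-miR-130b under the housed label was 161.5 (error 11.8), 67.0 (5.26), 45.5 (3.84) and 70.3 (5.50). Under the grazing label the values were 24.9 (2.68), 28.5 (2.86), 106 (7.997) and 22.1 (2.48). Signals were thus lower at 0, 1 and 4 mo under the grazing label, whose arrays were also dimmer as a whole at these months, and higher at 2 mo.

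After scaling, miR-130b stood at 1.48, 0.805, 0.897 and 0.853 under the housed label and at 0.611, 0.914, 1.89 and 0.645 under the grazing label. The arrays labelled housed 0 mo and grazing 2 mo were therefore high, the other 6 lay between 0.611 and 0.914, and the labels overlapped. The lower of the high pair exceeded the next array 1.62-fold. The highest array was 3.09 times the lowest, and the SD of log2 scaled signal over the 8 arrays was 0.56, which 15 of the 143 miRNAs detected on all arrays exceeded. Of the 143 miRNAs, 9 (6.29%) had these arrays as their highest, miR-130a among them. The high pair were also the arrays with the highest 90th percentile of their label, and the part of overall brightness in this was not tested.

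miR-130a, likewise known as a repressor of PPARG, was nearly level. The signal of bta-miR-130a was 64.6 (4.97), 45.5 (3.83), 29.4 (2.89) and 44.5 (3.74) under the housed label and 20.1 (2.43), 17.7 (2.34), 39.0 (3.50) and 18.5 (2.30) under the grazing label. Scaled, it stood at 0.593, 0.547, 0.580 and 0.540 labelled housed and at 0.494, 0.567, 0.694 and 0.540 labelled grazing. The highest array was 1.41 times the lowest, where the median over the 143 miRNAs was 1.93, and 139 of the 143 had a larger SD of log2 scaled signal than the 0.14 of miR-130a. Its highest arrays were nonetheless those of miR-130b, grazing 2 mo followed by housed 0 mo, although housed 0 mo led the next array only 1.02-fold, which is within the error.

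miR-301a was dim. The signal of bta-miR-301a was 12.3 (2.18), 21.1 (2.84), 9.05 (2.18) and 16.03 (2.48) under the housed label. Under the grazing label it reached 9.58 (2.17) at 1 mo and 14.4 (2.53) at 2 mo, and it was not detected at 0 mo, with 3.86 (1.99), or at 4 mo, with 2.36 (1.89). Scaled, the detected values were 0.113, 0.253, 0.178 and 0.194 labelled housed and 0.307 and 0.256 labelled grazing. In contrast to miR-130b, its detected minimum was the array labelled housed 0 mo, and its highest scaled value was at 1 mo under either label.

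miR-454 gave no signal that could be read. The signal of bta-miR-454 ranged from -1.45 to 0.127 over the 8 arrays and never passed 0.0687 times its error. miR-301b, the cluster partner of miR-130b, ranged from -1.52 to 0.347, never passed 0.174 times its error, and was also detected on 0 arrays. A change of either between labels or months was not detectable at these signals, and no fold is given for them.

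**Figure D1:**
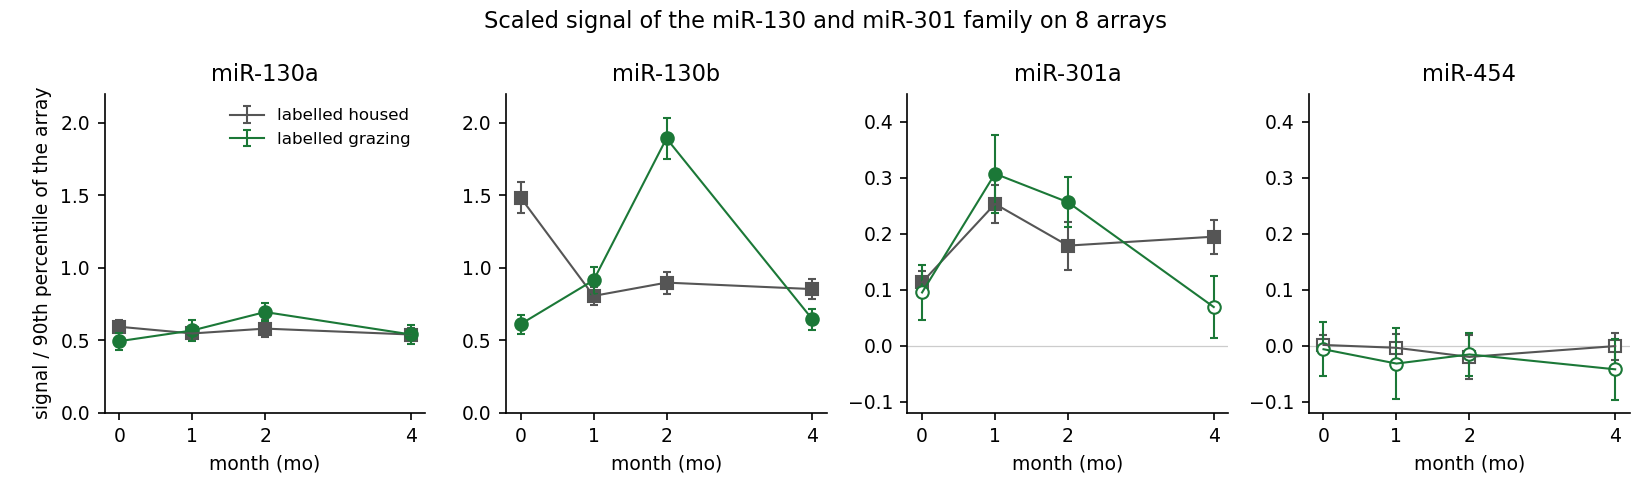
Scaled signal (signal over the 90th percentile of the array) of the 4 members against month, for the arrays labelled housed (squares) and grazing (circles), with bars of 1 scanner error estimate and open symbols where the miRNA was not detected. The panels of miR-301a and miR-454 have a finer vertical scale than the others. miR-130b rises to 1.48 and 1.89 on a single array of each label, and miR-130a stays between 0.494 and 0.694.

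The comparison between labels at each month asks whether the rest of the family parted where miR-130b did. Differences are given as log2 scaled signal of the array labelled grazing minus that labelled housed, and a miRNA is called where it was detected on both arrays and the difference was at least 2-fold. At 0 mo miR-130b was 2.43-fold higher labelled housed, a difference of -1.28 (error 0.19), and miR-130a differed by -0.26 (0.21). Of the 2 members that could be compared 1 was thus called, where 9.88% of the 162 miRNAs detected on both arrays were, and 13 of the 162 differed by more in size than miR-130b. miR-301a was detected only labelled housed, at a scaled 0.113 (0.020), and the undetected 0.0949 (0.0488) labelled grazing lay within the error of that, so no fold is given. The 0 mo differences precede the grazing. For its clustering the study kept only miRNAs whose groups lay within 2-fold of each other at that time. It also required a raw signal above a set level at 0 mo.

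At 1 mo no member was called, against 6.08% of 148 miRNAs. The differences were 0.18 (0.18) for miR-130b, 0.05 (0.23) for miR-130a and 0.28 (0.38) for miR-301a, each no larger than its error.

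At 2 mo miR-130b was 2.11-fold higher labelled grazing, a difference of 1.08 (0.16), and 5 of 155 miRNAs differed by more in size. miR-130a differed by 0.26 (0.19) and miR-301a by 0.52 (0.43), in the same direction and by less than 2 errors. Of 3 members 1 was called, where 5.16% of the 155 miRNAs were called in either direction and 1.29% as higher labelled grazing, which were miR-130b and miR-221.

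At 4 mo no member was called, against 12.4% of 153 miRNAs. miR-130b differed by -0.40 (0.20), which is 2.04 errors, and miR-130a by 0.00 (0.22). miR-301a was detected only labelled housed, at 0.194 (0.030), and its undetected value labelled grazing was 0.0689 (0.0553), so no fold is given. Over the 4 months the mean difference of miR-130b was -0.11 (SD 0.99) and that of miR-130a 0.01 (SD 0.22), months being repeated pools of the same animals and not replicates. The sign of miR-130b was thus not the same at all months, and without the 0 mo arrays its mean turned to 0.28.

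**Figure D2:**
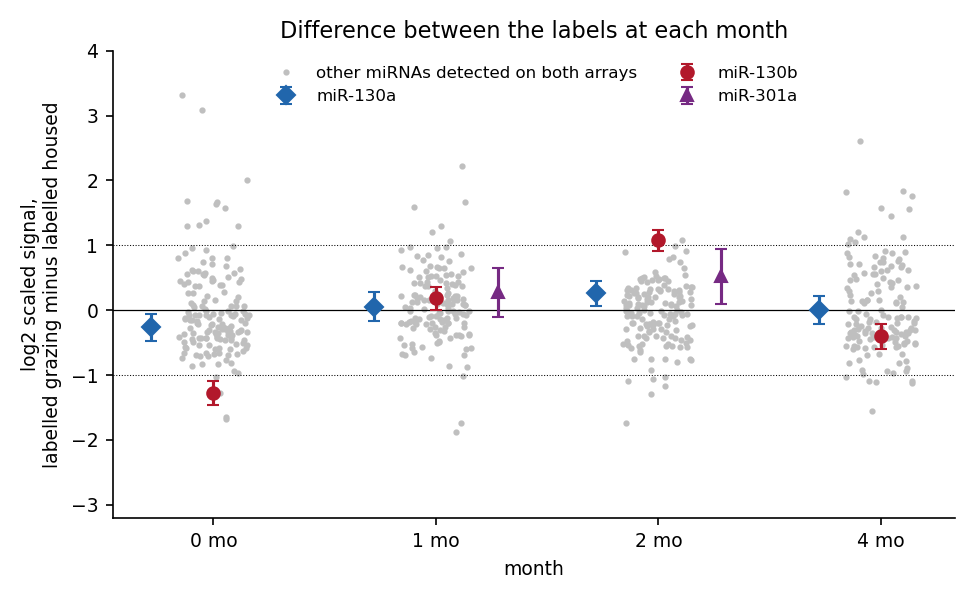
Difference in log2 scaled signal, labelled grazing minus labelled housed, against month for the members detected on both arrays (coloured symbols, bars of 1 error estimate) and the other miRNAs detected on both (grey), with dotted lines at 2-fold. miR-130b lies past a dotted line at 0 mo (-1.28) and at 2 mo (1.08), on opposite sides, and miR-130a and miR-301a lie within the lines.

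A ratio of miR-130b to miR-130a on the same array needs no scaling, and since the probes bind differently it is read only from array to array. In month order it was 2.50, 1.47, 1.55 and 1.58 under the housed label and 1.24, 1.61, 2.72 and 1.19 under the grazing label. The same arrays as before stood out, so the change of the pair was unequal. Between labels the log2 ratio differed by -1.01 (0.28), 0.13 (0.29), 0.82 (0.25) and -0.40 (0.29) from the first month to the last.

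The size of the difference of miR-130b depended on the scaling, and its sign at 0 and 2 mo did not under the 9 alternatives tried. At 0 mo it fell short of 2-fold with the 90th percentile taken over the miRNAs detected on all arrays (-0.96) and with normexp background correction (-0.76). At 2 mo it did so under the same alternatives (0.94 and 0.71) and when set against miR-130a (0.82). miR-130a stayed above 0 at 2 mo under 8 of 8 alternatives (0.11 to 0.66), while at 0 mo it turned to 0.054 with the first of these and to 0.078 with normexp. The median of all miRNAs moves with the scaling, and relative to that median, under the main scaling, miR-130b differed by -1.13, 0.093, 1.08 and -0.27 in month order. For miR-130a the same quantity was -0.11, -0.036, 0.26 and 0.13. The offset of 50 added with normexp makes the folds of miR-130b smaller by construction.

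**Figure D3:**
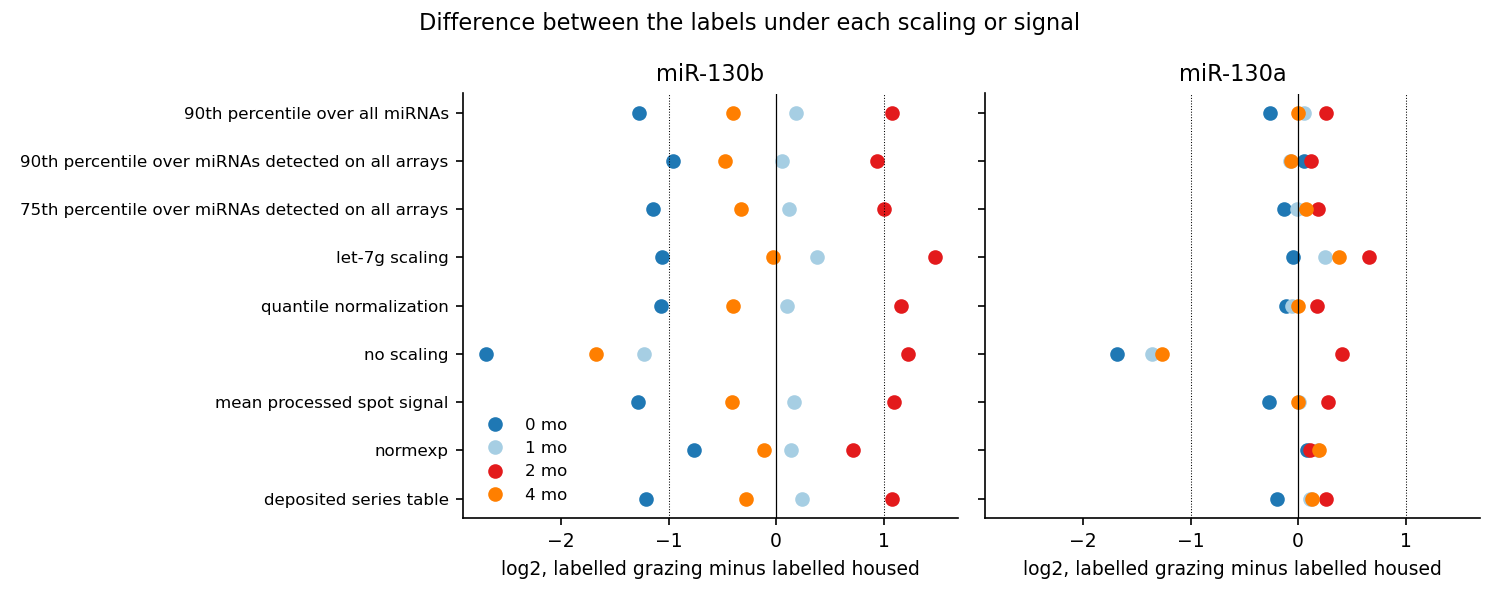
Difference in log2 signal, labelled grazing minus labelled housed, of miR-130b (left) and miR-130a (right) at each month under the main scaling (top) and 8 alternatives, with dotted lines at 2-fold. miR-130b stays below 0 at 0 mo (-2.70 to -0.76) and above 0 at 2 mo (0.71 to 1.48), and without scaling the values at 0, 1 and 4 mo move down for both miRNAs.

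Change over time within a label was taken from the 0 mo array of that label, so that the 3 later months share that array. Under the housed label, the log2 change of miR-130b in month order was -0.88 (0.15), -0.72 (0.16) and -0.80 (0.15), none of them past 2-fold. The 3 values lay within 1 error of each other. miR-130a changed by -0.12 (0.16), -0.03 (0.18) and -0.14 (0.16), within its error at each month.

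Labelled grazing, miR-130b changed by 0.58 (0.21) at 1 mo, rose 3.09-fold at 2 mo, a change of 1.63 (0.19), and was back within its error at 4 mo, with 0.08 (0.22). miR-130a changed by 0.20 (0.26), 0.49 (0.22) and 0.13 (0.25). The 2 mo value was the only one of miR-130a, under either label, above 2 errors. Among miRNAs whose probes held less than 50% G and C, as those of the family did, the median change was 0.38, 0.26 and 0.14 labelled grazing and 0.15, 0.04 and 0.14 labelled housed.

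Lower at every later month labelled housed and higher at every one labelled grazing was a pattern of 13 of the 143 miRNAs (9.09%), among them miR-130b and miR-130a, and the opposite pattern that of 1 (0.699%). The changes of miR-130a labelled housed turned to 0.16, 0.36 and 0.19 with the 90th percentile over miRNAs detected on all arrays, whereas those of miR-130b stayed below 0 under 8 of 8 alternatives. Labelled grazing, the 4 mo change of miR-130b, 0.077 (0.22), was within its error and stayed above 0 under only 4 of 8 alternatives, with -0.17 without scaling, so neither miRNA kept the pattern under every setting.

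miR-301a went another way labelled housed, where it rose 2.24-fold at 1 mo, a change of 1.16 (0.32), and changed by 0.66 (0.43) at 2 mo and 0.78 (0.34) at 4 mo. The 1 mo value fell to 0.57 with normexp correction and to 0.77 without scaling. Labelled grazing it stood at a scaled 0.307 (0.0694) at 1 mo and 0.256 (0.0451) at 2 mo, and at 0 mo it was not detected, with 0.0949 (0.0488), so no fold is given. Called members were thus 1 of 3 labelled housed at 1 mo, beside 9.19% of 185 miRNAs, 0 of 3 at 2 and 4 mo, beside 6.63% and 9.34%, and labelled grazing 0, 1 and 0 of 2 at 1, 2 and 4 mo, beside 10.3%, 11.7% and 3.9%.

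The pair of probes of a miRNA was compared within each array. For miR-130b the longer probe was 1.502 to 1.75 times as bright as the shorter one, and for miR-130a 1.22 to 1.41 times, and all 4 probes stood above 3 errors on all 8 arrays. The label difference of miR-130b was -1.22, 0.22, 1.10 and -0.36 in month order from the longer probe and -1.38, 0.12, 1.03 and -0.47 from the shorter one. Each probe alone thus placed miR-130b past 2-fold at 0 and 2 mo under the main scaling. The total signal that chose miR-130b is the sum of both probes, which share the RNA and the array. Their agreement is therefore not independent support. From the longer and the shorter probe miR-130a differed by -0.24 and -0.30 at 0 mo and by 0.20 and 0.34 at 2 mo.

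For miR-301a only the longer probe had signal. Its spots averaged 11.3 to 70.8 scanner units, and it passed 3 errors on 6 arrays, whereas the shorter probe, which lacks the last base, averaged -2.96 to 4.23 and reached at most 0.889 errors. The values of miR-301a hence rest on the 20 spots of 1 probe, and of its 40 spots 0 to 21 were flagged as well above background per array. Were most spots required to carry that flag, miR-301a would be detected on 1 array, the one labelled grazing 2 mo, while miR-130a and miR-130b would still be detected on 8. The longer probe of miR-301b, which differs from that of miR-301a at 2 bases, averaged -2.45 to 2.79 on the same arrays.

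**Figure D4:**
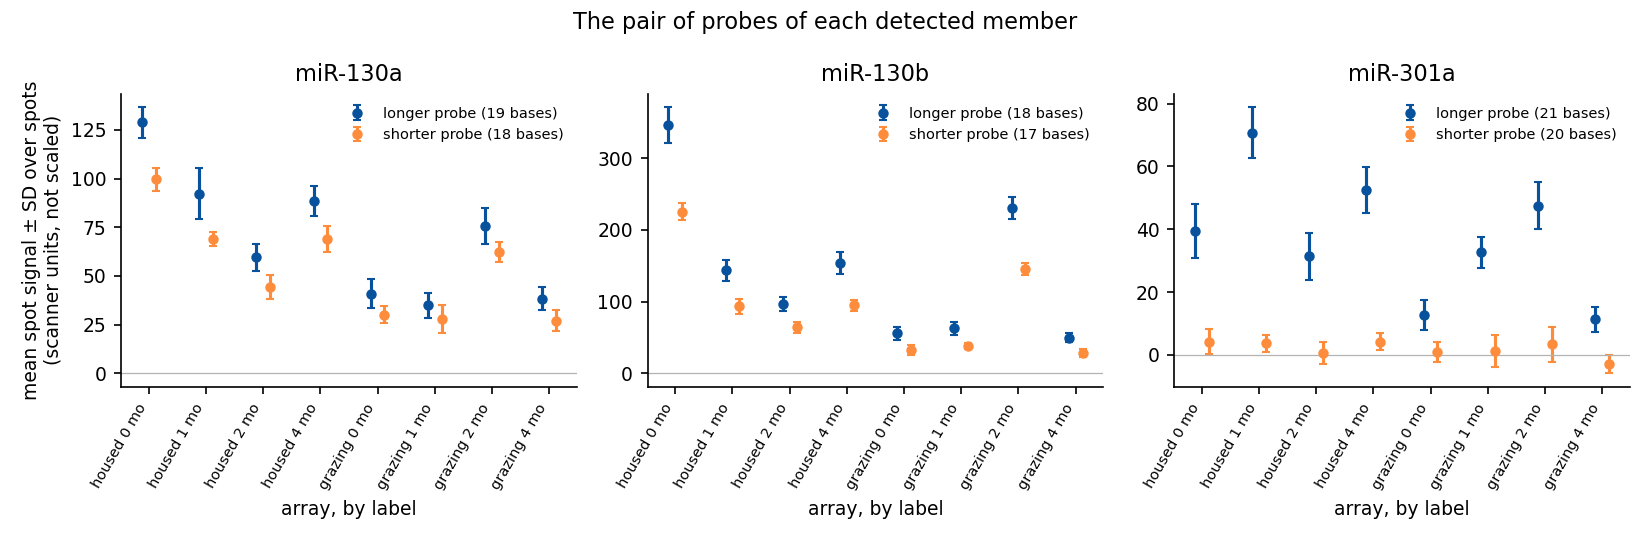
Mean spot signal in scanner units, not scaled, of the longer and the shorter probe of miR-130a, miR-130b and miR-301a on each array, with bars of 1 SD over the spots of that array that were not marked as outliers. The vertical scales differ between panels, both probes of miR-130b and miR-130a move together from array to array, and the shorter probe of miR-301a stays near 0 (-2.96 to 4.23).

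The miRNAs most like miR-130b over the 8 arrays, by Pearson's r of log2 scaled signal among the 143 detected on all of them, were miR-19b (0.94), miR-130a (0.92), miR-22-3p (0.92), miR-361 (0.90) and miR-24-3p (0.88). Those most like miR-130a were miR-361 (0.95), miR-19b (0.95), miR-19a (0.92), miR-130b (0.92) and miR-148a (0.92). The median r with the other 142 miRNAs was 0.00 for miR-130b and -0.01 for miR-130a. The points of such an r share the arrays and their scaling, and few arrays decide it, as miR-130a and miR-130b had an r of 0.96 without the array labelled housed 0 mo, 0.84 without that labelled grazing 2 mo and 0.77 with quantile normalization. So the log2 signal of miR-130a rose and fell with that of miR-130b over a smaller range. Of the changes of miR-130a from 0 mo, only that labelled grazing at 2 mo was above 2 errors. The label difference of miR-19b, a miRNA of the miR-17/92 cluster, was -0.46, 0.20, 0.50 and -0.13, and that of miR-22-3p was -0.97, -0.12, 0.48 and -0.54, both smaller at 0 and 2 mo than that of miR-130b.

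Other miRNAs with a known part in fat cell formation were set beside the family. Of 16 miRNAs known to promote it, such as miR-103 and miR-148a, 13 were detected on all arrays. In month order 13, 14, 14 and 13 could be compared between labels and 0 were called at any month, beside 9.88%, 6.08%, 5.16% and 12.4% of all miRNAs. In month order their median difference was -0.36, 0.11, -0.02 and -0.37, where that of all miRNAs compared was -0.15, 0.09, -0.01 and -0.13. Of 10 miRNAs that, like miR-130b, are known to oppose it, 5 were detected on all arrays and 5, 6, 6 and 6 could be compared, with medians of -0.53, 0.11, -0.08 and -0.25. miR-221, which is also abundant in endothelial cells and platelets, was the 1 called, at 2 mo, and it differed by -0.15, 0.40, 1.08 and -0.22. It thus shared the 2 mo difference of miR-130b and not that at 0 mo, and the medians of neither list stood on the side of miR-130b at 2 mo.

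Exosomes in plasma come from many cells, and the summed scaled signals of marker miRNAs, taken over the detected ones, also varied between arrays. The array labelled grazing 2 mo, where miR-130b was highest, had the highest sum of the myeloid list (50.3, against 24.1 to 44.1 on the other 7), the lowest of the erythroid list (16.9, against 24.7 to 49.1) and the lowest of the endothelial and platelet list (33.8, against 37.7 to 64.9). In the myeloid list miR-142-3p was detected on 0 arrays, so its sum was that of miR-223 and miR-142-5p. The endothelial and platelet list did not move as one. Its members miR-221 and miR-222 were higher labelled grazing than labelled housed at 2 mo, by 1.08 and 0.26 in log2 scaled signal. The array labelled housed 0 mo had the highest sum of the lymphocyte list (2.35, against 1.47 to 2.27), the lowest erythroid sum of its label (27.4, against 36.2 to 49.1) and a myeloid sum within the range of its label (32.5, against 27.6 to 33.1). Its endothelial and platelet sum was also within the range of its label (59.9, against 55.6 to 64.9). The lymphocyte sum labelled grazing 2 mo was instead the lowest of its label (1.82, against 2.02 to 2.27). The liver list summed to 0.455 to 0.529 labelled housed, where 3 of 3 were detected, and to 0.234 to 0.281 labelled grazing, where 1 or 2 of 3 were, so the sums cover different miRNAs and are not compared. Of 6 muscle miRNAs only miR-133b was detected, on 2 arrays labelled housed. The part of these cells in the values of miR-130b was not tested.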

How the data were processed

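Plasma exosomal RNA pools of 3 steers were hybridized by the authors to 1-colour Agilent arrays, 1 per label and month. The authors quantified them with Feature Extraction 10.7.3.1, as the submitters' processing notes name it, and deposited intensity values, background-subtracted and not normalized between arrays, with other columns holding detection flags. They also deposited a series table of a ratio, signal over 1 factor per array, used here as an alternative, of which 0 columns were left out.

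Total signals were divided by the 90th percentile of all 744 bovine miRNAs of the array and taken to log2, with no floor, and no fold is given for an undetected miRNA. The error of a difference combined the scanner errors of both arrays. A call was a difference of at least 2-fold with detection on both arrays. No test was made, since each label and month had 1 array, and the number of arrays limits the precision. The members and lists were chosen with earlier results of these data known. The miRNAs named are the members, further entries with the same probe ending, miR-301b, the 5 most like miR-130a and miR-130b, list members called at 2 mo and let-7g. For the alternatives, spots marked as outliers were left out and normexp used an offset of 50 (limma 3.58.1, R 4.3.3). Other numbers came from Python 3.11.15, numpy 2.4.6 and pandas 2.3.3, and the calling step was checked on simulated data.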

Additional observations from a re-analysis of the deposited data

Results flagged for a closer look

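For miR-130b, every later month lay below 0 mo on the arrays labelled housed and above it on those labelled grazing, and the mean change labelled grazing exceeded that labelled housed by 1.56 on the log2 scale, which 3 of the 143 miRNAs detected on all arrays exceeded in size. For miR-130a the signs were the same and the excess was 0.37, which 55 of the 143 exceeded, beside a median of 0.28. This pattern of signs was met by 13 of the 143 miRNAs (9.09%), and the opposite one by 1 (0.699%). The difference was not tested. Each sign rests on the 0 mo array of its label. The excess is the mean label difference over the 3 later months less that at 0 mo, before grazing began. These were 0.28 and -1.28 for miR-130b and 0.10 and -0.26 for miR-130a. For miR-130b the 4 mo change labelled grazing, 0.077, was within its error of 0.22 and fell below 0 under 4 of 8 alternatives, to -0.040 with the 75th percentile, -0.00035 with let-7g, -0.032 with quantile normalization and -0.17 without scaling. For miR-130a the pattern does not hold with the 90th percentile over miRNAs detected on all arrays, where the changes labelled housed were 0.16, 0.36 and 0.19. Read by the column headings of the study's table, the labels change places.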

How the results depend on the processing

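Of 228 recomputed values that have an error, which for a mean over months is the SD between months, 169 moved by no more than it and 59 by more, and no called difference changed sign. A further 14, counts of arrays, r and unscaled spot signals, have no error. No analysis with a replicate block was possible because the labels give no replicate numbers. Months pair the arrays of the labels, and the mean over months uses this, but they are repeated pools of the same animals. Differences are labelled grazing minus labelled housed, in log2, and changes are from 0 mo of the label. Without scaling, miR-130b differed by -2.70, -1.23 and -1.67 at 0, 1 and 4 mo and changed by -1.27, -1.83 and -1.20 labelled housed and 0.20, 2.09 and -0.17 labelled grazing. miR-130a differed by -1.69, -1.36 and -1.27 at those months, -0.98 on average over the 4 months beside -1.09 for miR-130b, and changed by -0.51, -1.14 and -0.54 labelled housed and by -0.18 and 0.96 at 1 and 2 mo labelled grazing. miR-301a differed by -1.14 at 1 mo and changed by 0.77, -0.44 and 0.38 labelled housed. Without scaling the medians of all miRNAs were themselves -1.57, -1.33, 0.14 and -1.40 at 0, 1, 2 and 4 mo. With let-7g scaling miR-130b differed by -1.06, 0.38, 1.48 and -0.024, with a change of -1.04 labelled housed at 4 mo, and miR-130a by -0.047, 0.66 and 0.38 at 0, 2 and 4 mo, 0.31 on average beside 0.19 for miR-130b (-0.11 in the main scaling), with a change of -0.37 labelled housed at 4 mo. With normexp correction miR-130b differed by -0.76, 0.71 and -0.11 at 0, 2 and 4 mo and changed by -0.62, -0.51 and -0.57 labelled housed and by 0.28 and 0.96 at 1 and 2 mo labelled grazing. miR-130a then differed by 0.078 at 0 mo and changed by 0.16 labelled grazing at 2 mo, and miR-301a differed by 0.070 at 2 mo and changed by 0.57 and 0.44 at 1 and 4 mo labelled housed. With the 90th percentile over miRNAs detected on all arrays miR-130b differed by -0.96 at 0 mo and changed by -0.61, -0.33 and -0.47 labelled housed, and miR-130a differed by 0.054 at 0 mo and changed by 0.16, 0.36 and 0.19. With the 75th percentile over those miRNAs the 2 mo changes labelled grazing were 1.38 for miR-130b and 0.24 for miR-130a. With quantile normalization miR-130b differed by -1.07 at 0 mo and miR-301a changed by 1.12 labelled housed at 4 mo. Over miR-130a of the same array, an alternative chosen after seeing the data like the r with an array left out, miR-130b differed by -1.01 and 0.82 at 0 and 2 mo. By most spots well above background miR-301a was detected on 1 array. Leaving out each month in turn gave means from -0.50 to 0.28 for miR-130b and from -0.07 to 0.10 for miR-130a. Of all miRNAs, 16, 9, 8 and 19 were called at 0, 1, 2 and 4 mo, with 11, 6, 2 and 13 of them higher labelled grazing. The counts were 126, 112, 8 and 103 without scaling (2, 0, 5 and 1 higher), 22, 16, 10 and 31 with let-7g (18, 14, 9 and 30), 10, 3, 3 and 7 with normexp (3, 0, 0 and 1), 23, 9, 7 and 21 with the 90th percentile over miRNAs detected on all arrays (21, 5, 0 and 11), 20, 9, 5 and 23 with quantile normalization (12, 5, 2 and 12) and 19, 12, 13 and 19 in the deposited table (13, 8, 5 and 15). Without scaling, each difference moves by the log2 ratio of the 90th percentiles of its arrays, by construction. The normexp offset of 50 was added to every spot, and the mean spots of miR-130b were 28.4 to 346, so its folds become smaller. What else moved the counts was not tested. Low signal limits miR-301a to 6 arrays and 1 probe and leaves miR-454 without a value.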
